A study of Mus musculus with 18 samples.

Results

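The proteasome genes of the mouse dentate gyrus were followed through 3 comparisons of c-Fos manipulation and neuronal activity. Members were taken by name alone, as every row whose symbol was Psma, Psmb, Psmc or Psmd followed by a number, and the rule found 39 genes among the 24015 rows of each of the authors' deposited tables. They comprise the 7 alpha subunits and the 4 structural beta subunits of the 20S core, the 3 constitutive catalytic beta subunits, the 3 immunoproteasome beta subunits, the 6 ATPases and 11 other subunits of the 19S cap, 3 chaperones of cap assembly and 2 tissue-restricted core subunits. RNA-seq libraries came from dentate gyrus dissected from adult C57BL/6 mice 8 weeks old, with 1 library per animal, and they form 6 groups of 3. The EYFP_OE and cFos_OE groups overexpressed the fluorescent protein EYFP or the transcription factor c-Fos. The shRNA-Ctrl_E0 and shRNA-Ctrl_E1 groups carried a control hairpin, and the shRNA-cFos_E0 and shRNA-cFos_E1 groups carried a hairpin named for c-Fos. The labels do not define E0 and E1, but the authors name the reference of each comparison sham, and the title of the series speaks of neuronal activity. Which vector and promoter drove each construct, and in which cells, is not given by the labels. No other allele or agent is named for any group, and all groups share the strain, the age and the tissue.

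The 26S proteasome is the protease that degrades ubiquitin-tagged proteins. Its 20S core is a stack of alpha and beta rings, in which Psmb5, Psmb6 and Psmb7 hold the chymotrypsin-like, caspase-like and trypsin-like active sites. Its 19S cap binds ubiquitin chains, removes them, and unfolds the substrate with a ring of ATPases. Interferon-stimulated cells build an immunoproteasome, in which Psmb8, Psmb9 and Psmb10 take the places of Psmb5, Psmb6 and Psmb7 and shift the cut peptides toward those that fit class I histocompatibility molecules. In brain, the constitutive form predominates in neurons, while microglia and other glia can make the immuno form.

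The DNA just before the start sites is shown for 5 of the 6 catalytic genes, matched by symbol to a RefSeq promoter table. Sequences are RefSeq's, from the GRCm38.p6 build, written 5′ to 3′ on the strand of the gene. Each ends at the base before the start that the promoter table uses, with motif matches in capitals. Psmb8 lies on the plus strand at chr17:34197945-34198194, and its capitals mark a gamma-activated site, an element of interferon-gamma response.
Psmb8: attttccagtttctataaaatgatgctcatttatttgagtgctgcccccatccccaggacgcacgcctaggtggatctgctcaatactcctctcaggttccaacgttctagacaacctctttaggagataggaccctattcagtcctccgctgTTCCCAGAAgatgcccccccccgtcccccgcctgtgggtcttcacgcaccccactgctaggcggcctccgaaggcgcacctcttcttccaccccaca
Psmb9 lies on the minus strand, and chr17:34187331-34187555 is the whole stretch between its start and that of Tap1, the peptide transporter gene that runs the other way. The capitals mark a CCAAT box on the opposite strand.
Psmb9: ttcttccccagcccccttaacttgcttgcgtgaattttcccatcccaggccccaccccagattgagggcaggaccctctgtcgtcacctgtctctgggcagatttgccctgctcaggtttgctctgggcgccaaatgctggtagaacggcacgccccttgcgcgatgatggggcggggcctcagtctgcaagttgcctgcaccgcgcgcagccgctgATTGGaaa
Psmb10 lies on the minus strand at chr8:105938393-105938642 and held none of the motifs searched.
Psmb10: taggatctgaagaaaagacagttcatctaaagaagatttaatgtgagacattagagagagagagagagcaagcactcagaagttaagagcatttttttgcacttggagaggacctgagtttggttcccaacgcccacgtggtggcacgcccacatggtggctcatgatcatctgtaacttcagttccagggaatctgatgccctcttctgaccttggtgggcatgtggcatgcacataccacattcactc
Psmb5 lies on the minus strand at chr14:54617996-54618245 and Psmb6 on the plus strand at chr11:70525107-70525356. The capitals in both mark the core of the antioxidant response element, the kind of element bound by Nfe2l1 and Nfe2l2. In RefSeq the Psmb6 gene begins at 70525324, so the end of its printed stretch, with the capitals, lies inside the gene.
Psmb5: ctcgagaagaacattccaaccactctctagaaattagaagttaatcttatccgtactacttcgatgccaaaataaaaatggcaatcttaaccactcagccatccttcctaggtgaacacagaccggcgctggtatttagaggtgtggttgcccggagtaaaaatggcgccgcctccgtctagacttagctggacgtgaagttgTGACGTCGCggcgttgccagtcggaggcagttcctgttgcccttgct
Psmb6: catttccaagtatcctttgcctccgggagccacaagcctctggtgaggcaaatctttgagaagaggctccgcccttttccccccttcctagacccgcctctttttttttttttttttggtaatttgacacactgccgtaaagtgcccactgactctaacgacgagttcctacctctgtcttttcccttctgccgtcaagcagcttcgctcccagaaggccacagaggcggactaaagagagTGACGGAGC

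Psmb9, Tap1 and Psmb8 are neighbours on chromosome 17. The starts of Psmb9 and Tap1 are 225 bases apart, and the end of Tap1 lies 969 bases before the start of Psmb8. Promoter windows of 300 bases, from 250 before to 50 after the start, were found for 32 of the 39 members. Of all 32851 windows in the table, 8.30% held the gamma-activated site TTCNNNGAA on either strand. Among the 3 immunoproteasome genes Psmb8 alone held it, at -97 to -89 from its start. Of the 25 constitutive genes with a window, 1 held it, Psmd2. The core of the interferon-stimulated response element, GAAANNGAAA, was in 3.44% of all windows and in 0 of the 3 immunoproteasome windows. It was in 2 of the 25 constitutive genes, Psmb3 and Psmd4. The core of the antioxidant response element, TGACNNNGC, was in 12.4% of all windows and in 4 of the 25 constitutive genes with a window, Psmb5, Psmb6, Psmc6 and Psmd12. The CCAAT box (CCAAT) was in 37.4% of all windows and in 10 of those 25 genes. The AP-1 site bound by Fos and Jun, TGANTCA, was in 7.81% of all windows and in 0 of the 3 immunoproteasome windows. Of the 25 constitutive genes 1 held it, Psmb5, at 41 to 47 bases after the start. Outside these classes, Psmd9, a chaperone gene of cap assembly, held it at -126 to -120 from its start. Psmd9 also held the cores of the interferon-stimulated response element, at -159 to -150, and of the antioxidant response element, at -31 to -23. The cAMP response element TGACGTCA was in 1.79% of all windows and in none of the 28 windows of immunoproteasome and constitutive genes. A match is a run of letters and not a measured binding site. Whether these motifs bear on the expression changes was not tested.

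The deposited tables hold no value per library, so each gene is given by its mean normalized count over the 6 libraries of a comparison and by the authors' DESeq2 log2 fold change with its standard error. Positive values are higher in E1, or with c-Fos overexpression. A gene was called when the authors' adjusted p was under 0.05. The difference of the E1 responses, shRNA-cFos minus shRNA-Ctrl, was tested here from the deposited values with a 2-sided normal test, adjusted by Benjamini-Hochberg over 14386 genes. Depth per library is unknown. Fos itself rose in all 3 of the authors' deposited tables, by 3.36 ± 0.14 with the control hairpin, 2.33 ± 0.15 with the c-Fos hairpin and 3.34 ± 0.20 on overexpression (log2 ± SE, 3 against 3 libraries, as for all fold changes here). The authors' deposited tables listed markers of dentate granule neurons at mean counts from 60.04 to 4798 with shRNA-Ctrl. Prox1, which defines these neurons, was called lower in E1 with shRNA-Ctrl (-0.39) and higher with shRNA-cFos (0.23) by the authors' DESeq2 test.

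Of the 39 proteasome genes, Psmb8 and Psmb9 had the largest changes in each of the 3 comparisons, and their E1 response had opposite signs under the 2 hairpins. All 3 immunoproteasome genes rose with the control hairpin, Psmb8 and Psmb9 fell with the c-Fos hairpin, and Psmb8 and Psmb9 rose on c-Fos overexpression. The 31 constitutive subunits lay near 0 throughout: their median log2 fold change in the authors' deposited tables was 0.09 with shRNA-Ctrl, 0.04 with shRNA-cFos and 0.04 on overexpression. For the 3 immunoproteasome genes the medians in the authors' deposited tables were 0.995, -0.64 and 0.67. Over all tested genes of the authors' deposited tables the medians were 0.01, -0.00 and -0.01.

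With shRNA-Ctrl, 10 of the 38 tested members were called, all higher in E1. Of all 15675 genes tested in the authors' deposited table, a share of 33.0% was called (16.8% rose and 16.2% fell), so the members' share of 26.3% was no larger than that of genes at large. With shRNA-cFos, 4 of 37 tested members were higher and 4 lower, whereas 28.1% of the 14388 genes tested in the authors' deposited table were called (16.3% rose and 11.7% fell). On overexpression 3 of 38 members were called, all higher, whereas 13.0% of the 15827 genes tested in the authors' deposited table were called (7.1% rose and 5.86% fell). In the difference of the E1 responses 5 of 37 members were called, 1 higher and 4 lower with shRNA-cFos, against 23.8% of all genes tested, 12.9% higher and 11.0% lower. Across the 3 comparisons, 24 members were called in none, 11 in 1, Psmb2 and Psmd11 in 2, and Psmb8 and Psmb9 in all 3. Of the 14341 genes tested in all 3 comparisons 46.4% were called in none, 33.5% in 1, 16.8% in 2 and 3.32% in all 3, and of the 37 such members 59.5%, 29.7%, 5.41% and 5.41%.

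**Figure D1:**
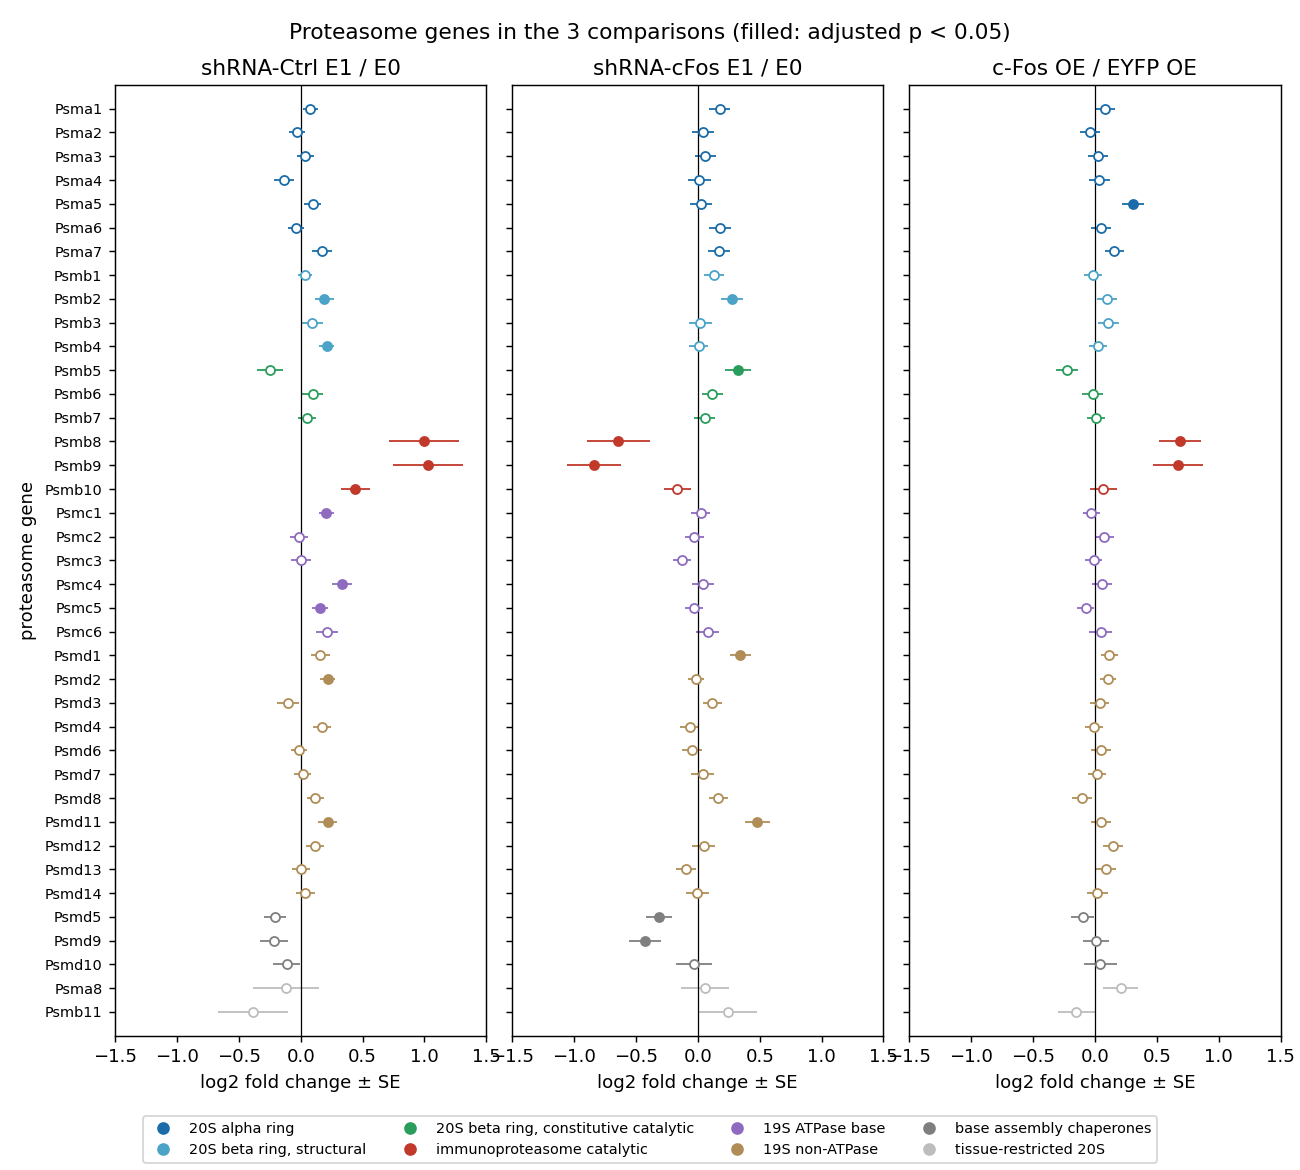
Log2 fold change (x axis, ± SE) of the 39 proteasome genes (y axis, coloured by class) in the authors' 3 comparisons of 3 against 3 libraries; filled points have an adjusted p under 0.05. Psmb8 and Psmb9 lie at 0.995 and 1.03, at -0.64 and -0.84, and at 0.69 and 0.67 in the 3 panels, while constitutive subunits stay between -0.25 and 0.48.

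Psmb8, which carries the chymotrypsin-like site of the immunoproteasome, rose 1.99-fold in E1 with the control hairpin, by 0.995 ± 0.28 on the log2 scale of the authors' deposited table (DESeq2 adjusted p = 0.00217). With the c-Fos hairpin the authors' deposited table gave a fall of 0.64 on the log2 scale, -0.64 ± 0.26 (DESeq2 adjusted p = 0.0472). That call was lost when p-values were adjusted over every gene with a p (adjusted p = 0.0625). On overexpression Psmb8 rose by 0.69 ± 0.17 in the authors' deposited table (DESeq2 adjusted p = 0.00111). The E1 response of Psmb8 was lower with the c-Fos hairpin by 1.64 ± 0.38 on the log2 scale, with a 95% interval from -2.38 to -0.89 (normal test, adjusted p = 0.00027). The authors' fold changes were shrunken toward 0, which acts most on genes with large standard errors such as Psmb8 and Psmb9. With that prior removed, the 3 values of Psmb8 were 1.55, -1.06 and 0.89, and those of Psmb9 1.63, -1.09 and 1.20. The differences of responses were then -2.61 and -2.72. Each SE allows 2 prior-free values, and the one nearer 0 was taken. For SEs near the largest of a comparison that choice could not be checked. Such SEs include that of Psmb8 with shRNA-cFos (0.26, largest 0.26) and that of Psmb9 on overexpression (0.20, largest 0.20). Removing the prior keeps the ratio of each fold change to its SE, so calls within a comparison could not change.

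Psmb9, the subunit that takes the place of the caspase-like Psmb6, had the same signs. In the authors' deposited tables it rose by 1.03 ± 0.28 with shRNA-Ctrl (DESeq2 adjusted p = 0.0017), fell by 0.84, with an SE of 0.22, with shRNA-cFos (DESeq2 adjusted p = 0.00125), and rose by 0.67 ± 0.20 on overexpression (DESeq2 adjusted p = 0.0107). Its difference of responses was -1.86 ± 0.36, with a 95% interval from -2.57 to -1.16 (normal test, adjusted p = 6.9e-06). Tap1, across the shared stretch of DNA printed above, had log2 fold changes of 1.23 ± 0.27, -0.90 ± 0.17 and 0.58 ± 0.19 in the authors' deposited tables, each of them called. In the GENCODE vM21 annotation, which is not the one the authors used, 212 bases or 15.7% of Psmb9 exon overlap Tap1 on the opposite strand. For Psmb8 the same annotation gives 186 bases or 11.4% shared with Gm20496. The labels do not give the strandedness of the libraries, so reads in those stretches cannot be assigned.

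Psmb10, which takes the place of the trypsin-like Psmb7, moved less. It rose by 0.44 ± 0.12 with shRNA-Ctrl in the authors' deposited table (DESeq2 adjusted p = 0.000908). The other values in the authors' deposited tables, -0.16 ± 0.11 with shRNA-cFos (DESeq2 adjusted p = 0.27) and 0.07 ± 0.11 on overexpression (DESeq2 adjusted p = 0.825), did not pass. Its difference of E1 responses passed, at -0.60 ± 0.16 with a 95% interval from -0.92 to -0.29 (normal test, adjusted p = 0.00154).

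Of the constitutive partners, Psmb6 and Psmb7 passed no test. Psmb6 had log2 fold changes of 0.10 ± 0.08, 0.12 ± 0.08 and -0.02 ± 0.08, and Psmb7 of 0.05 ± 0.07, 0.05 ± 0.08 and 0.01 ± 0.07, in the authors' deposited tables, none of them called. The difference of responses was 0.02 for Psmb6, with a 95% interval from -0.21 to 0.25, and 0.01 for Psmb7, with an interval from -0.21 to 0.22. In GENCODE vM21 a share of 34.9% of Psmb7 exon overlaps Nek6 on the opposite strand. Processed pseudogenes of Psmb5, Psmb6 and Psmb7 are annotated, and any reads shared with these copies would make the values of all 3 genes uncertain. Such sharing was not measured. Psmb5 had the opposite signs to Psmb8 in each table: -0.25 ± 0.11 with shRNA-Ctrl (DESeq2 adjusted p = 0.0608), 0.33 ± 0.11 with shRNA-cFos (DESeq2 adjusted p = 0.0105) and -0.23 ± 0.09 on overexpression (DESeq2 adjusted p = 0.0682) in the authors' deposited tables. Of these, the rise with shRNA-cFos passed. The difference of responses for Psmb5 was 0.57 ± 0.15, with a 95% interval from 0.28 to 0.87 (normal test, adjusted p = 0.00145), and Psmb5 was the one member called higher with shRNA-cFos.

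Set as pairs, the log2 fold change of Psmb8 minus that of Psmb5 was 1.24, -0.97 and 0.91 from the authors' deposited tables of shRNA-Ctrl, shRNA-cFos and overexpression. For Psmb9 minus Psmb6 the authors' deposited tables give 0.93, -0.96 and 0.69, and for Psmb10 minus Psmb7 they give 0.39, -0.22 and 0.06. With the prior removed the first pair had 1.80, -1.40 and 1.13, the second 1.54, -1.21 and 1.22, and the third 0.41, -0.23 and 0.06. All 3 pairs thus had the same order of signs, and the third pair had the smallest values. These pair values are descriptions, since genes of the same libraries are not independent and the covariance between them is not given.

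**Figure D2:**
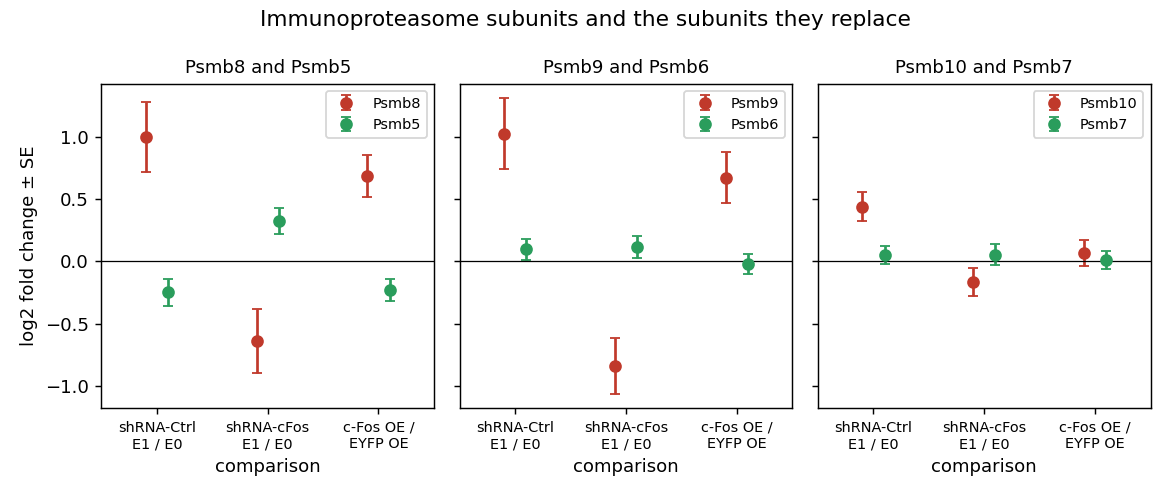
Log2 fold change (y axis, ± SE, from the authors' comparisons of 3 against 3 libraries) of each immunoproteasome gene (red) and its constitutive partner (green) in the 3 comparisons (x axis). Red points lie above green ones with shRNA-Ctrl and on overexpression and below them with shRNA-cFos, with Psmb8 minus Psmb5 at 1.24, -0.97 and 0.91.

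Immunoproteasome transcripts were the minor form in all 3 tables. Per kilobase of exon (GENCODE vM21 exon lengths), Psmb8 made up 10.5%, 10.5% and 5.67% of the summed level of Psmb8 and Psmb5 in the authors' deposited tables of shRNA-Ctrl, shRNA-cFos and overexpression. Psmb9 made up 3.90%, 4.22% and 2.64% of its pair, and Psmb10 18.1%, 17.8% and 16.5% of its pair, in the same order of the authors' deposited tables. The order of the shares, Psmb10 above Psmb8 above Psmb9, was the same in each table. No error can be put on a share from these tables, so neighbours in that order were not tested. Each share uses the mean over both groups of a comparison, so it pools E0 with E1, or EYFP with c-Fos. The shares thus do not show how the groups or the hairpins differed.

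Group levels were estimated from each mean and fold change, and they carry no error. With shRNA-Ctrl the authors' deposited table puts Psmb8 at 176 normalized counts in E0 and 350 in E1. With shRNA-cFos it puts Psmb8 at 215 in E0 and 138 in E1 in the authors' deposited table. On the same basis Psmb9 went from 73.9 to 151 with shRNA-Ctrl, from 111 to 62.0 with shRNA-cFos, and from 40.8 to 64.9 on overexpression, from the authors' deposited tables. The tables were normalized separately. After scaling the 2 hairpin tables to each other by the median over 12405 genes, the E0 level with shRNA-cFos over that with shRNA-Ctrl was 0.72 for Psmb8, 1.02 for Psmb9 and 0.32 for Psmb10 in log2. The E1 ratios on that scale were -0.91, -0.85 and -0.28. With the prior removed the E0 ratios were 1.26, 1.54 and 0.33 and the E1 ratios -1.35, -1.18 and -0.30. For Psmb6 and Psmb7 all 4 such log2 ratios lay between -0.07 and 0.03, and for Psmb5 they were -0.44 at E0 and 0.13 at E1. No test across tables was made.

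**Figure D3:**
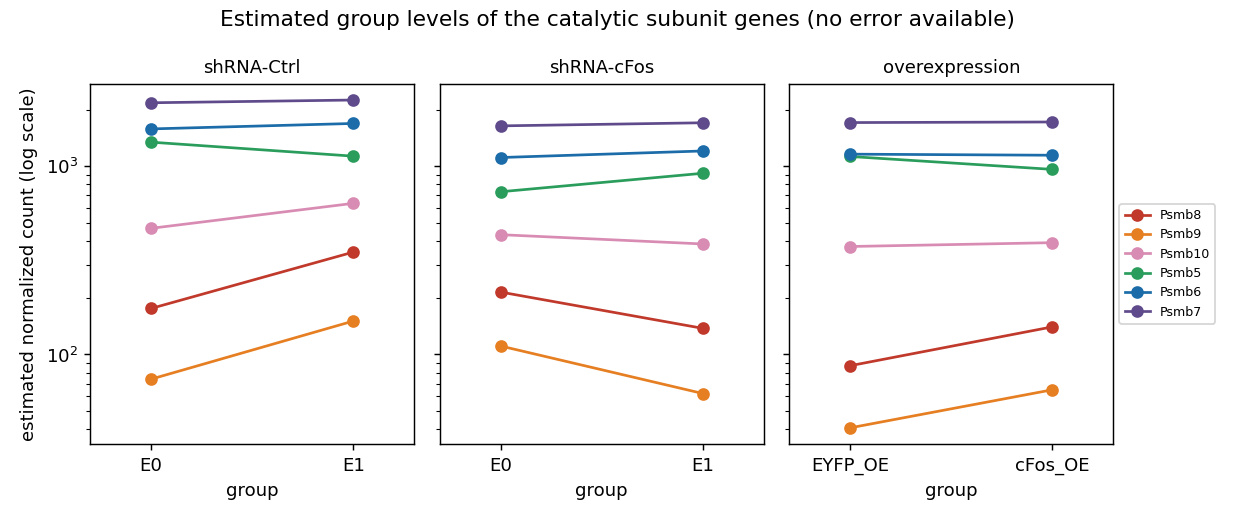
Estimated normalized count (y axis, log scale) of the 6 catalytic subunit genes in the 2 groups (x axis) of each comparison, computed from the authors' mean and fold change, with no error available. Psmb8 goes from 176 to 350 with shRNA-Ctrl, from 215 to 138 with shRNA-cFos and from 87.2 to 140 on overexpression, while Psmb5, Psmb6 and Psmb7 stay above it in all 6 groups.

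In the 20S core, the alpha ring, Psma1 to Psma7, had 0 of 7 genes called in either hairpin arm by DESeq2, with 1 and 2 at an unadjusted p under 0.05 in the authors' deposited tables. Its log2 fold changes in the authors' deposited tables ran from -0.14 (Psma4) to 0.17 (Psma7) with shRNA-Ctrl and from 0.01 (Psma4) to 0.18 (Psma6) with shRNA-cFos. On overexpression Psma5 rose by 0.31 ± 0.09 in the authors' deposited table (DESeq2 adjusted p = 0.00432), and the other 6 lay between -0.04 (Psma2) and 0.16 (Psma7). Of the structural beta subunits, Psmb1 and Psmb3 were called in no table. Psmb4 rose by 0.21 ± 0.06 with shRNA-Ctrl in the authors' deposited table (DESeq2 adjusted p = 0.00442). Psmb2 rose in both hairpin arms of the authors' deposited tables, by 0.19 ± 0.08 (DESeq2 adjusted p = 0.0473) and 0.28 ± 0.09 (DESeq2 adjusted p = 0.011). The first of these calls for Psmb2 was lost when the fold changes were centred on their median.

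Of the ATPases that form the unfolding ring of the cap, 3 of 6 rose with shRNA-Ctrl. In the authors' deposited table Psmc4 rose by 0.33 ± 0.08 (DESeq2 adjusted p = 0.000562), Psmc1 by 0.21 ± 0.06 (DESeq2 adjusted p = 0.00395) and Psmc5 by 0.16 ± 0.06 (DESeq2 adjusted p = 0.0417), the last of which was lost when centred on the median. Psmc2, Psmc3 and Psmc6 were not called. With shRNA-cFos 0 of 6 ATPases passed, with log2 fold changes from -0.13 (Psmc3) to 0.08 (Psmc6) in the authors' deposited table, and on overexpression 0 of 6 passed, with values from -0.07 (Psmc5) to 0.08 (Psmc2). Counts at an unadjusted p under 0.05 in the authors' deposited DESeq2 tables were 4, 0 and 0 of 6. The difference of responses was below 0 for all 6 ATPases, with a median of -0.16 against 0.01 over all genes, and 0 of 6 passed, with 1 at an unadjusted p under 0.05. Relative to genes with a mean of at least 1000, a level that all 6 reach and whose median difference was 0.12, Psmc1, Psmc4 and Psmc5 were called lower. The uncentred value for Psmc4 was -0.29 ± 0.12 (normal test, adjusted p = 0.0682).

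Among the other cap subunits, which bind ubiquitin chains, remove them and hold the cap together, Psmd11 moved most. It rose by 0.22 ± 0.08 with shRNA-Ctrl (DESeq2 adjusted p = 0.0154) and by 0.48 ± 0.10 under the c-Fos hairpin (DESeq2 adjusted p = 3.2e-05) in the authors' deposited tables. The difference between these 2 responses, 0.26 ± 0.13, did not pass (normal test, adjusted p = 0.12). Psmd2, a scaffold of the cap base, rose by 0.22 ± 0.06 with shRNA-Ctrl in the authors' deposited table (DESeq2 adjusted p = 0.00165). Its difference of responses was -0.23 ± 0.09 (normal test, adjusted p = 0.0444), a call that ended when values were centred on their median. Psmd1, the other large scaffold, rose by 0.34 ± 0.09 with shRNA-cFos in the authors' deposited table (DESeq2 adjusted p = 0.000676). Psmd3, Psmd4, Psmd6, Psmd7, Psmd8, Psmd12, Psmd13 and the deubiquitinase Psmd14 were called in no table. On overexpression the 11 genes lay between -0.10 (Psmd8) and 0.15 (Psmd12) in the authors' deposited table, with 0 called and 0 at an unadjusted p under 0.05 by DESeq2.

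Psmd5, Psmd9 and Psmd10 match the name rule but are known as chaperones of cap assembly that leave the finished particle. Their medians in the authors' deposited tables were -0.21, -0.31 and 0.01, beside 0.09, 0.04 and 0.04 for the constitutive subunits. With shRNA-cFos Psmd9 fell by 0.42, with an SE of 0.13 (DESeq2 adjusted p = 0.00558), and Psmd5 fell by 0.31, with an SE of 0.10 (DESeq2 adjusted p = 0.0139), in the authors' deposited table. With shRNA-Ctrl the authors' deposited values were -0.22 for Psmd9, -0.21 for Psmd5 and -0.11 for Psmd10, none of them called. The differences between the 2 arms did not pass for any of the 3. The testis subunit Psma8 and the thymus subunit Psmb11 had mean counts from 3.48 to 6.35 in the authors' deposited tables. Psma8 had no adjusted p in any of the authors' deposited tables, and Psmb11 had none with shRNA-cFos. These are the members that did not pass the authors' filter on low means.

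The position of constitutive subunits in the shRNA-cFos table depended on the reference. Genes with a mean of at least 1000, which most of these subunits reach, had a median log2 fold change of 0.12 in that authors' deposited table, against -0.00 over all tested genes. Relative to such genes the median of the 31 constitutive subunits was -0.07, Psmb2 and Psmb5 lost their calls, Psmb10 was called lower at -0.28, and the members' split went from 4 higher and 4 lower to 2 higher and 7 lower. Over all genes called with shRNA-cFos the higher share went from 58.2% to 29.2%, and in the difference of responses from 54.0% to 29.4%. Across the 31 constitutive subunits, which share libraries within a table, the log2 fold changes with shRNA-Ctrl and under the c-Fos hairpin in the authors' deposited tables had a Pearson r of 0.05 and a Spearman rho of 0.11.

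**Figure D4:**
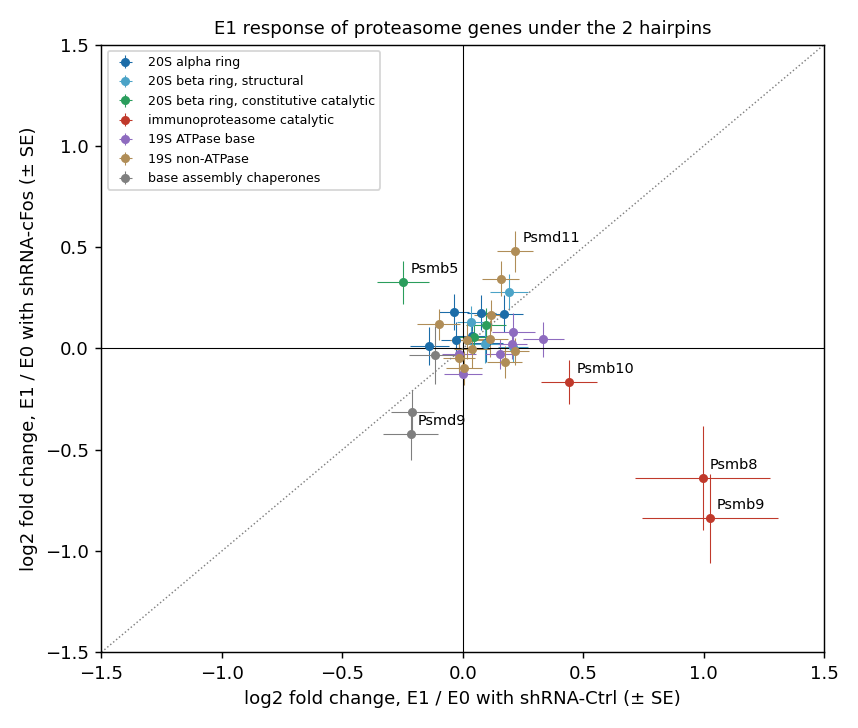
Log2 fold change of E1 over E0 with shRNA-Ctrl (x axis, ± SE) against that with shRNA-cFos (y axis, ± SE) for the proteasome genes other than Psma8 and Psmb11, coloured by class; each axis is a comparison of 3 against 3 libraries and the dotted line marks equal responses. Psmb8, Psmb9 and Psmb10 lie at the lower right, and Psmb5 at the upper left with -0.25 and 0.33.

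The activators that can replace the 19S cap were followed as a list of 5 with the inhibitor Psmf1. With shRNA-Ctrl 4 of 5 rose, with shRNA-cFos 2 rose and 1 fell, and on overexpression 1 rose. Psme1 and Psme2 form the interferon-induced 11S activator that works with the immunoproteasome. In the authors' deposited tables Psme1 rose by 0.37 ± 0.11 with the control hairpin and fell by 0.31, with an SE of 0.10, with shRNA-cFos, both called. Psme2 rose by 0.52 ± 0.10 with shRNA-Ctrl in the authors' deposited table, and its value of -0.24 ± 0.11 with shRNA-cFos did not pass (DESeq2 adjusted p = 0.0931). Their differences of responses were -0.68 ± 0.15 and -0.77 ± 0.15, both called (normal test, adjusted p = 9.1e-05 and 1.4e-05). Psme3 and Psme4, which encode nuclear activators, rose in both hairpin arms: by 0.27 ± 0.07 and 0.54 ± 0.09 with shRNA-Ctrl, and by 0.19 ± 0.08 and 0.28 ± 0.10 under the c-Fos hairpin, in the authors' deposited tables. Psme4 also rose on overexpression, by 0.42 ± 0.10 in the authors' deposited table.

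The 5 chaperones that build the 20S core gave few calls: with shRNA-Ctrl Pomp rose by 0.22 ± 0.06 and Psmg2 fell by 0.36, with an SE of 0.11, in the authors' deposited table. In the other 2 of the authors' deposited DESeq2 tables, none passed (0 of 5), with 1 at an unadjusted p under 0.05 in each. Of 15 cofactors that bind the proteasome, 5 rose and 3 fell with shRNA-Ctrl, 3 rose with shRNA-cFos and 2 fell on overexpression. Zfand5, a ubiquitin-binding activator of the 26S particle, rose by 0.84 ± 0.10 and 0.92 ± 0.08 in the 2 hairpin arms of the authors' deposited tables and fell by 0.20, with an SE of 0.06, on overexpression. Zfand2a rose by 0.27 ± 0.09 and 0.62 ± 0.11 in the hairpin arms of the authors' deposited tables. Txnl1 rose by 0.40 ± 0.06 with shRNA-Ctrl, and Ube3c, a ligase of stalled substrates, fell by 0.28, with an SE of 0.08, in the same authors' deposited table.

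Among genes that supply and activate ubiquitin, Uba6, an activating enzyme, rose under both hairpins, by 1.21 ± 0.11 and 0.56 ± 0.11 in the authors' deposited tables. The response was smaller with the c-Fos hairpin, with a difference of -0.65 ± 0.16 (normal test, adjusted p = 0.00044). Ubb rose by 0.21 ± 0.07 with shRNA-Ctrl in the authors' deposited table. Of the 5 genes on the list 2 rose with shRNA-Ctrl and 1 with shRNA-cFos, and on overexpression 0 passed by DESeq2 in the authors' deposited table, with 1 at an unadjusted p under 0.05.

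Of 6 regulators of proteasome genes, 3 rose and 1 fell under the control hairpin. Under the c-Fos hairpin 1 rose and 2 fell, and on overexpression 1 rose. Nfe2l1, the factor that raises proteasome genes when proteolysis falls short, rose with shRNA-cFos by 0.63 ± 0.11, and its value with shRNA-Ctrl was 0.07 ± 0.10 (DESeq2 adjusted p = 0.626) in the authors' deposited tables. Its difference of responses, 0.55 ± 0.15, passed (normal test, adjusted p = 0.00249). Nfe2l2 went the other way in the authors' deposited tables, rising by 0.34 ± 0.11 with shRNA-Ctrl and falling by 0.59, with an SE of 0.12, with shRNA-cFos. Ddi2, the protease that activates Nfe2l1, fell by 0.36, with an SE of 0.12, with shRNA-cFos in the authors' deposited table. Stat3 rose by 0.97 ± 0.12 with shRNA-Ctrl and by 0.40 ± 0.10 on overexpression in the authors' deposited tables.

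Genes of class I antigen processing, which take up the peptides that the immunoproteasome makes, had the same signs as Psmb8 and Psmb9. All 7 rose with shRNA-Ctrl, 5 of 7 fell with shRNA-cFos and 3 of 7 rose on overexpression. Of all tested genes 16.8% rose, 11.7% fell and 7.1% rose in those comparisons. The medians of the 7 genes in the authors' deposited tables were 0.85, -0.50 and 0.35. Tap2, the partner of Tap1 in the peptide transporter, had values of 0.80 ± 0.22, -0.72 ± 0.14 and 0.28 ± 0.15 in the authors' deposited tables, the last not called. The heavy chain H2-K1 had values of 0.86 ± 0.27, -0.42 ± 0.25 and 0.65 ± 0.19 in the authors' deposited tables, the middle one not called, and H2-D1 was called in the same pair of comparisons at 0.85 ± 0.25 and 0.67 ± 0.14. The difference of responses was below 0 and called for all 7, against 11.0% of all genes tested called lower.

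Of 12 genes of interferon signalling, 5 rose and 1 fell under the control hairpin, 7 fell under the c-Fos hairpin and 4 rose on overexpression. Nlrc5, the transactivator of class I genes and of Psmb9, had log2 fold changes of 1.17 ± 0.29, -1.07 ± 0.21 and 1.17 ± 0.20 in the authors' deposited tables, all called. Irf7 was called in all 3 of the authors' deposited tables, at 1.01 ± 0.29, -0.69 ± 0.25 and 0.62 ± 0.20, as was Irf8, at 0.63 ± 0.18, -0.87 ± 0.18 and 0.63 ± 0.16. Irf9, part of the factor that binds interferon-stimulated response elements, rose by 0.56 ± 0.18 with the control hairpin and fell by 1.10, with an SE of 0.16, under the c-Fos hairpin in the authors' deposited tables. The kinase Jak1 rose on overexpression, by 0.59 ± 0.07 in the authors' deposited table. The gene that fell with shRNA-Ctrl was the receptor chain Ifngr2, by 0.53, with an SE of 0.07, in the authors' deposited table.

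**Figure D5:**
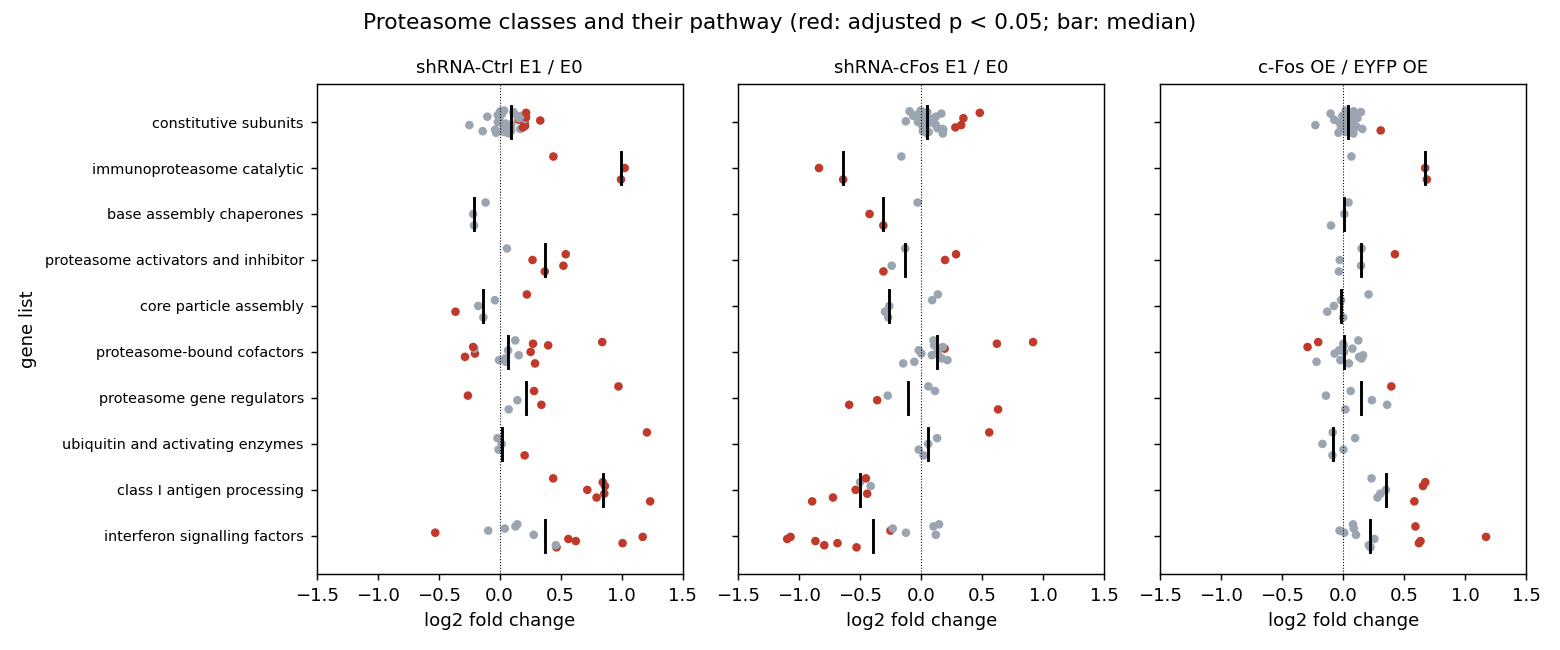
Log2 fold changes (x axis) in the authors' 3 comparisons for the tested genes of 3 classes of members and 7 pathway lists (y axis); each point is a gene, red where the adjusted p is under 0.05, and the black bar is the list's median. Class I antigen processing has medians of 0.85, -0.50 and 0.35, with the signs of the immunoproteasome medians of 0.995, -0.64 and 0.67, while the constitutive subunits have 0.09, 0.04 and 0.04.

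Most microglial and reactive astrocyte markers moved with the immunoproteasome genes, and oligodendrocyte markers did not. In bulk tissue, more cells of a type and more RNA per cell cannot be told apart. Over all tested genes 16.8% rose and 16.2% fell with shRNA-Ctrl, and 16.3% rose and 11.7% fell with shRNA-cFos. On overexpression 7.1% of all tested genes rose and 5.86% fell. Of 14 microglial markers 11 rose with shRNA-Ctrl. With shRNA-cFos 9 fell and 1 rose, and on overexpression 9 rose. Their summed level, estimated from the authors' deposited tables, was 13611 in E0 and 17838 in E1 with shRNA-Ctrl, 12692 and 9996 with shRNA-cFos, and 10777 with EYFP and 14158 with c-Fos. The 3 comparisons were normalized separately, and these sums were not scaled to each other. Such sums compare groups within a comparison only. Of 12 reactive astrocyte markers 7 rose, 8 fell, and 10 of 11 tested rose in the same order. Of 16 granule neuron markers 1 rose and 10 fell with shRNA-Ctrl, 8 rose with shRNA-cFos, and 1 rose and 6 fell on overexpression. No marker on these lists was at 0. Among the defining microglial markers, P2ry12 had values of -0.13 ± 0.14, 0.32 ± 0.13 and -0.02 ± 0.10 and Cx3cr1 of 0.25 ± 0.09, -0.02 ± 0.09 and 0.18 ± 0.10 in the authors' deposited tables, while C1qa had 0.51 ± 0.19, -0.51 ± 0.13 and 0.67 ± 0.11. Of 12 endothelial markers 5 rose with the control hairpin, 2 rose and 1 fell under the c-Fos hairpin, and 1 rose and 4 fell on overexpression. Of oligodendrocyte markers 1, 3 and 1 of 12 fell. Of T and NK cell markers 3 of 7 tested rose with shRNA-Ctrl, 0 of 2 tested passed with shRNA-cFos, with 0 at an unadjusted p under 0.05 by DESeq2, and 1 of 6 rose on overexpression. Counts of the tested T and NK cell markers were low, with a median mean count of 10.2 with shRNA-Ctrl and 7.22 on overexpression. The part of all these cell types in the immunoproteasome values was not tested.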

How the data were processed

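RNA-seq was made from 18 dentate gyrus libraries, and groups follow the sample titles. Per the submitters' processing notes the authors used TopHat2, DESeq2 and the mm9 build, with no versions given. The 3 deposited tables give, per the file headers, the mean normalized count (a signal), the log2 fold change with its SE, the Wald statistic (a score), the p-value and the adjusted p-value. They hold comparisons and no value per library, so the authors' DESeq2 tests were used as deposited and no fit on counts was made. The deposited log2 fold changes were shrunken toward 0, as SEs capped at 0.29, 0.26 and 0.20 show; the prior was removed as an alternative. Rows whose names had become dates (27, all on overexpression) were left out. The difference of the E1 responses used the 2 deposited log2 fold changes and SEs; tested on simulated data for that difference (14386 genes, 200 of them changed 2-fold), the test recovered 83.0% of the changed genes. Members are all rows matching the name rule; named in full are the 6 catalytic genes, every member called, the ends of each class and up to 4 called genes per pathway list, plus a few chosen after their values were seen. From the pathway lists 2 genes are not reported here. Members and lists were chosen with earlier results of these data known. Python 3.11.15, numpy 2.4.6, pandas 2.3.3 and scipy 1.17.1 were used.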

Additional observations from a re-analysis of the deposited data

Results flagged for a closer look

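These genes are listed because their E1 response differed between the hairpins by the normal test of the difference (adjusted p under 0.05, 3 against 3 libraries in each arm). Values are log2 fold changes with shRNA-cFos minus those with shRNA-Ctrl, computed from the authors' deposited tables. Among members, Psmb5 was higher with shRNA-cFos, at 0.57, and Psmb9 (-1.86), Psmb8 (-1.64), Psmb10 (-0.60) and Psmd2 (-0.23) were lower. In class I antigen processing the values were -2.13 for Tap1, -1.52 for Tap2, -1.35 for H2-D1, -1.30 for Tapbp, -1.28 for H2-K1, -1.26 for B2m and -0.89 for Erap1. Among interferon signalling genes Nlrc5 had -2.25, Irf7 -1.70, Irf9 -1.66, Irf8 -1.49, Irf1 -1.26 and Stat2 -0.998, while Ifngr2 had 0.40. The activators Psme2 and Psme1 had -0.77 and -0.68. Among cofactors the ubiquitin receptor Adrm1 had -0.44 and Txnl1 -0.29, while Ube3c had 0.43, Ubqln2 0.40 and Ubqln4 0.39. Of the regulators Nfe2l2 had -0.93, Stat3 -0.92 and Ddi2 -0.51, and Nfe2l1 had 0.55. The activating enzyme Uba6 had -0.65. Relative to genes with a mean of at least 1000, whose median responses differed by 0.12 between the hairpins, values above 0 shrink and values below 0 grow by that amount.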

How the results depend on the processing

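Of 304 alternative values for single proteasome genes, 261 kept their direction and side of the threshold. A further 35 kept their direction and lost the call, 3 kept it and gained one, and 5 changed sign. Changes of threshold, fold minimum or adjustment leave the value as it is, so they could not change a direction. Removing the prior could change neither direction nor call within a comparison. Requiring a change of at least 1.5-fold left 2 members called with shRNA-Ctrl, 2 with shRNA-cFos and 3 in the difference of responses, and an adjusted p under 0.01 left 4 with shRNA-cFos. With the prior removed the medians of the 3 immunoproteasome genes were 1.55, -1.06 and 0.89 with shRNA-Ctrl, shRNA-cFos and overexpression. The difference of responses was then -2.61 for Psmb8 and -2.72 for Psmb9, so the size of these changes depends on the prior. Their size also depends on which of the 2 possible prior-free values is taken. Centring on genes with a mean of at least 1000, chosen after seeing the data, gave 10 members called in the difference, 1 higher and 9 lower, and put the constitutive median with shRNA-cFos at -0.073; the cause was not tested. The same centring gave the 5 sign changes, all in genes not called: Psmb6 with shRNA-cFos (-0.0021), on overexpression (0.0051) and in the difference (-0.10), and Psmb7 with shRNA-cFos (-0.063) and in the difference (-0.12). No paired analysis was possible because the files hold no value per library, so the replicate block, leaving out each replicate, and TMM or size-factor scaling were not run. Whether 1 library carries a value could not be checked, and depth is unknown.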
